A study of Arabidopsis thaliana with 6 samples.

Results

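The genes described here encode the nuclear subunits of photosystem I and photosystem II, the mobile carriers and enzymes that link the photosystems, the nuclear subunits of the chloroplast ATP synthase, and the PGR5 and PGRL1 proteins of cyclic electron flow. They were chosen by locus from a list of 40, all of which were present among the 32678 genes listed for each library. By complex, 13 were grouped under photosystem I, 14 under photosystem II, 7 under the electron carriers, 3 under the ATP synthase and 3 under the PGR group. The photosystem I group follows the gene names and so includes PSAP, also known as the curvature protein CURT1B. Polyadenylated RNA came from whole Arabidopsis thaliana seedlings of the wild type Col-0 or of csu6-2, which is mutated in COP1 SUPPRESSOR 6, with 3 libraries a genotype. All 6 libraries were from seedlings kept in white light for 5 days. The labels give neither the nature of the csu6-2 lesion nor its locus, so the mutated transcript was not examined. They also do not say whether libraries came from separately grown seedlings, so p-values measure the spread between these libraries, which may be technical.

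Oxygenic photosynthesis moves electrons from water through photosystem II, plastoquinone, the cytochrome b6f complex and plastocyanin to photosystem I, and from there through ferredoxin and ferredoxin-NADP reductase to NADPH. The chlorophyll-binding cores are largely plastid-encoded, whereas the peripheral, oxygen-evolving and carrier subunits described here are made from nuclear transcripts that accumulate in light-grown green tissue. The study concerns CSU6 and PIF transcription factors, which are known to hold down photosynthesis genes in darkness, and COP1 opposes light-driven development.

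The deposited values were RPKM, in which reads are divided by gene length and by the total of the library, so levels of different genes can be set side by side. Steps among the lowest values put the depth of a library between 27.4 M and 42.6 M reads, an estimate that takes the most common low value as 2 reads. It also rests on RefSeq exon lengths, which may differ from those behind the deposited values. Across 18885 tested genes, Pearson correlations of log2(RPKM + 1) lay between 0.991 and 0.993 for libraries of the same genotype and between 0.983 and 0.989 across genotypes. By limma on log2(RPKM + 1), with p-values adjusted over all tested genes and a threshold of 0.05, 671 genes were higher and 1771 lower in csu6-2. With libraries scaled by median-of-ratios factors these counts were 1066 and 1113, and the median change over the tested genes went, on the log2 scale, from -0.07 to 0.00. Markers of root tissue were low, with 9 of 14 tested, 0 past the threshold by limma (0 at an unadjusted p under 0.05), and a summed level of 72.2 to 86.8 RPKM in Col-0 and 76.8 to 98.1 RPKM in csu6-2. Seed storage markers were near 0, with a summed level of at most 3.04 RPKM over 4 genes and 0 of 4 tested. Of 6 leaf mesophyll markers outside the thylakoid, 0 passed by limma (1 at an unadjusted p under 0.05), and their summed level was 18648 to 19350.4 RPKM in Col-0 and 19119 to 21649.5 RPKM in csu6-2. The log2 changes of these 6 ranged from -0.22 to 0.20, with 3 positive. Without csu6-2 replicate 1, 1 of the 6 was called lower and 2 reached an unadjusted p under 0.05. Of the 9 root markers, 7 had a positive log2 change in the main fit, with a median of 0.17 beside -0.07 over all tested genes. Of these 9, 4 reached an unadjusted p under 0.05 with median-of-ratios scaling, 6 without csu6-2 replicate 2 and 2 without Col-0 replicate 1, and 0 were called in any of these fits. The part of these markers in the results was not tested. In RNA from whole seedlings, fewer cells of a type and less RNA per cell cannot be told apart.

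The csu6-2 seedlings held more transcript for photosystem I and for part of photosystem II. Of the 13 genes for carriers, ATP synthase and PGR proteins, 0 were called higher by limma, a count near the 3.55% of all tested genes called higher. FD1 alone of these 13 was called lower, where 9.38% of all tested genes were, and no other of them reached an unadjusted p under 0.05. All 40 genes passed the filter on low values. Of these, 17 were higher in csu6-2 and 1 was lower, against 3.55% of all tested genes called higher and 9.38% called lower. The 17 comprised 11 of 13 photosystem I genes, PSAP (CURT1B) among them, and 6 of 14 photosystem II genes. The lower gene was FD1, for a leaf ferredoxin. In 21 of the 40 genes every csu6-2 library lay above every Col-0 library, and in 2 every csu6-2 library lay below, where the same held for 9.04% and 23.0% of all tested genes. With median-of-ratios scaling, 16 were higher and 0 lower, against 5.64% and 5.89% of all tested genes. The summed level of the 40 genes was 8.26 ± 0.267% of all RPKM in Col-0, while in csu6-2 it was 9.94 ± 0.582% (SD, n = 3 each).

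**Figure D1:**
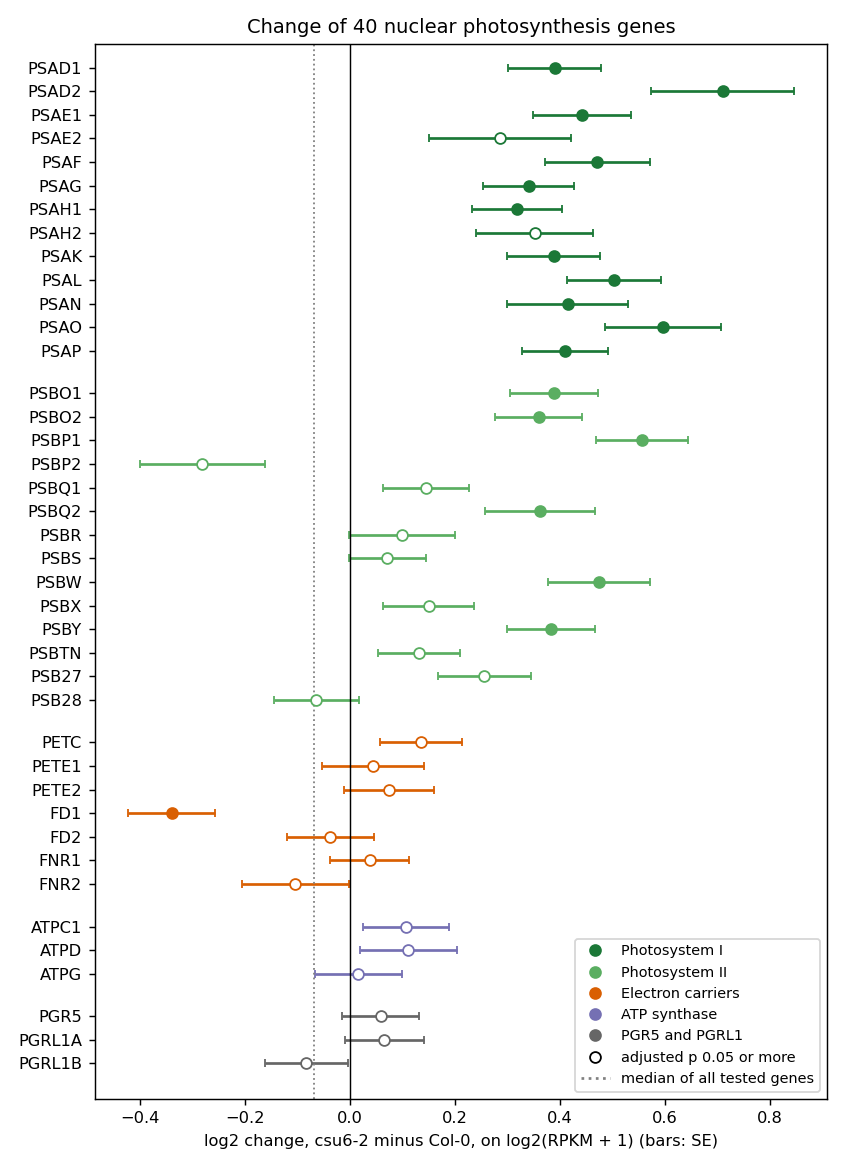
The log2 change (csu6-2 minus Col-0, from log2(RPKM + 1) values) of the 40 genes, grouped by complex, with SE as bars (3 libraries a genotype) and filled points where adjusted p was under 0.05. The 13 photosystem I genes lie between 0.29 and 0.71, while the carriers, ATP synthase and PGR genes lie between -0.34 and 0.14.

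By complex, the photosystem I genes had the highest median change. The median log2 change was 0.41 over the photosystem I genes, 0.20 over the photosystem II genes, 0.04 over the carriers, 0.11 over the ATP synthase genes and 0.06 over the PGR group, beside -0.07 over all tested genes. The summed RPKM of the photosystem I genes was 23351, 21093 and 21908 in Col-0 and 26456, 32803 and 30761 in csu6-2, so the groups did not overlap, and the mean was 1.36-fold higher in csu6-2. For photosystem II the sums were 31473, 28987 and 31695 in Col-0 and 33611, 38232 and 37329 in csu6-2, again without overlap and 1.18-fold higher. The carrier sums overlapped between genotypes, at 11913, 12321 and 12963 in Col-0 and 12345, 12905 and 12769.8 in csu6-2. So did those of the ATP synthase, at 2294, 2489 and 2152 in Col-0 and 2482, 2585 and 2252 in csu6-2, and of the PGR group, at 706, 685 and 646 in Col-0 and 725, 713 and 680.5 in csu6-2. With a library left out, the medians ranged over -0.02 to 0.04 for the carriers, 0.04 to 0.16 for the ATP synthase genes and 0.02 to 0.08 for the PGR group, and over 0.34 to 0.49 and 0.17 to 0.24 for photosystems I and II. The ATP synthase median was lowest without Col-0 replicate 3 and highest without Col-0 replicate 2, and that of the PGR group lowest without Col-0 replicate 3 and highest without Col-0 replicate 1. With median-of-ratios scaling the medians of the carriers, ATP synthase and PGR groups were 0.11, 0.18 and 0.14. These sums and medians are descriptions and carry no test.

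Among the csu6-2 libraries, replicate 1 was the lowest csu6-2 library for 13 of 13 photosystem I genes and 10 of 14 photosystem II genes, where it was the lowest for 21.0% of all tested genes. Relative to the Col-0 mean, the summed photosystem I level was 1.196-fold in csu6-2 replicate 1, 1.48-fold in replicate 2 and 1.39-fold in replicate 3. The number of the 40 genes called higher was 15, 11 and 14 without Col-0 replicate 1, 2 or 3, and 18, 6 and 13 without csu6-2 replicate 1, 2 or 3. PSAL, PSAO, PSAP, PSBP1 and PSBW passed with any of the 6 libraries left out. Over the same fits the number of all tested genes called higher ranged from 389 to 674.

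**Figure D2:**
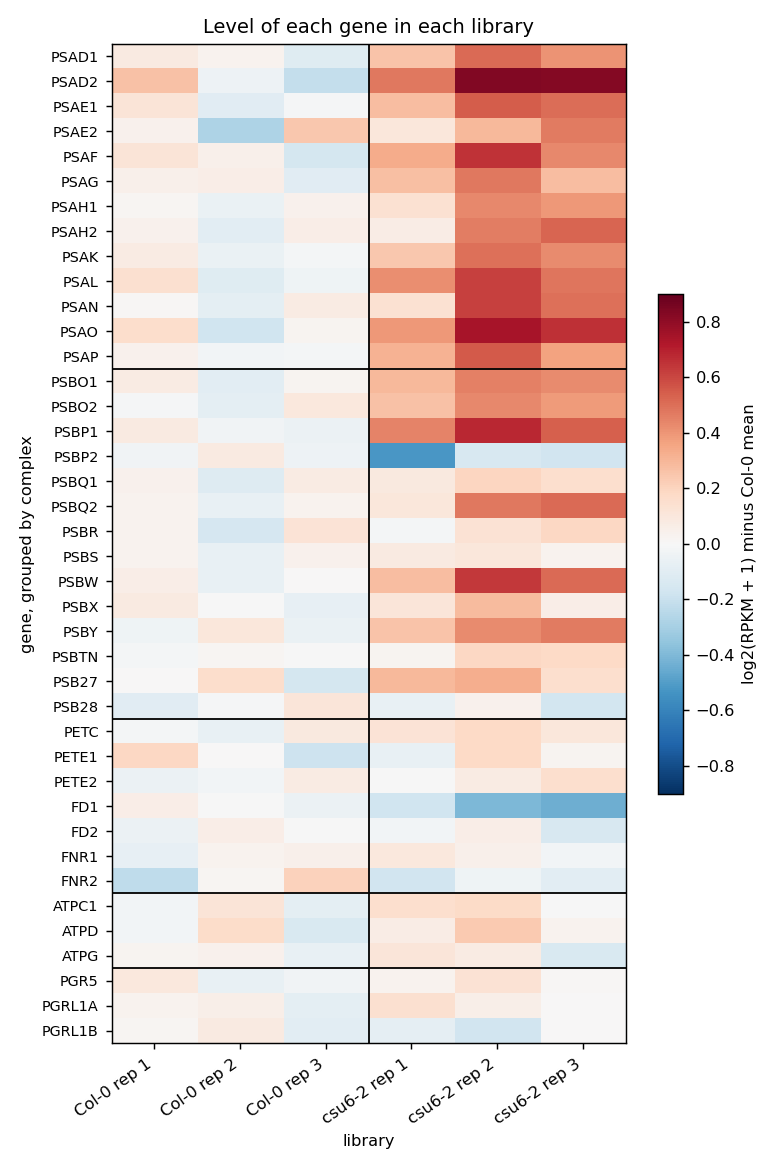
The level of each of the 40 genes in each library, as log2(RPKM + 1) minus the Col-0 mean of that gene, with lines between complexes and between genotypes. Red marks a higher and blue a lower level, and in the photosystem I block the 3 csu6-2 columns are red in all 13 rows, palest in replicate 1.

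Within photosystem I, PSAD and PSAE form the stromal ridge on which ferredoxin docks, and each is encoded by a pair of genes. PSAD1 stood at 1867, 1801 and 1636 RPKM in Col-0 and 2113, 2510.2 and 2335 RPKM in csu6-2. PSAD2 stood at 696, 559.6 and 497 RPKM in Col-0 and 803, 1032 and 1025 RPKM in csu6-2. For both genes all csu6-2 libraries exceeded all Col-0 libraries, with replicates 2 and 3 of csu6-2 the highest. PSAD1 (AT4G02770, chromosome 4, 1229031 to 1230164, minus strand, in the TAIR10.1 annotation) rose 1.31-fold in mean RPKM (log2 change 0.39, SE 0.09, adjusted p = 0.0122). PSAD2 (AT1G03130, chromosome 1, 753307 to 754262, minus strand) rose 1.63-fold (log2 change 0.71, SE 0.14, adjusted p = 0.00954), the largest log2 change of the 40 genes. PSAE1 (AT4G28750) was at 1965, 1686 and 1795 RPKM in Col-0 and 2198, 2643 and 2572 RPKM in csu6-2, also without overlap, and rose (log2 change 0.44, SE 0.09, adjusted p = 0.00848). PSAE2 (AT2G20260) was at 863, 693 and 992 RPKM in Col-0 and 903, 1027 and 1159.5 RPKM in csu6-2. Its groups overlapped, Col-0 replicate 3 lying above csu6-2 replicate 1, and it did not pass (log2 change 0.29, adjusted p = 0.201).

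PSAF and PSAN lie on the lumenal side, where PSAF provides the docking site for plastocyanin and PSAN assists electron transfer from it. PSAF (AT1G31330) was at 1855, 1769.6 and 1534 RPKM in Col-0 and 2160.2, 2693 and 2311 RPKM in csu6-2. PSAN (AT5G64040), whose Col-0 level ranked 8 among all genes, was at 3942, 3692 and 4122 RPKM in Col-0 and 4301, 5984 and 5526 RPKM in csu6-2. Neither gene overlapped between genotypes, although csu6-2 replicate 1 of PSAN lay just above Col-0 replicate 3. PSAF rose (log2 change 0.47, SE 0.10, adjusted p = 0.00888), as did PSAN (log2 change 0.42, SE 0.11, adjusted p = 0.0324). The PSAN call did not hold when either of Col-0 replicates 1 and 2, or either of csu6-2 replicates 2 and 3, was left out (adjusted p = 0.0605, 0.125, 0.147 and 0.0983) and with median-of-ratios scaling (adjusted p = 0.0543).

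PSAG and PSAK flank the core on the side that holds the light-harvesting antenna of photosystem I. PSAK (AT1G30380) was at 2924, 2666 and 2738 RPKM in Col-0 and 3289, 3909 and 3727 RPKM in csu6-2. PSAG (AT1G55670) was at 1903, 1915 and 1714 RPKM in Col-0 and 2222, 2558 and 2235 RPKM in csu6-2. In both genes the lowest csu6-2 library was clear of the highest Col-0 library, and both rose, PSAK by 0.39 (SE 0.09, adjusted p = 0.0122) and PSAG by 0.34 (SE 0.09, adjusted p = 0.0214) on the log2 scale.

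PSAH, PSAL and PSAO line the opposite side of the core, where mobile light-harvesting complexes of photosystem II dock during state transitions. PSAL (AT4G12800) was at 1624, 1364 and 1435 RPKM in Col-0 and 1965, 2252 and 2051 RPKM in csu6-2. PSAO (AT1G08380) was at 2728, 2161 and 2486 RPKM in Col-0 and 3209, 4102 and 3858 RPKM in csu6-2. Both were well separated, and both rose: PSAL 1.42-fold (log2 change 0.50, SE 0.09, adjusted p = 0.00303) and PSAO 1.51-fold (log2 change 0.60, SE 0.11, adjusted p = 0.00428). PSAH1 (AT3G16140) was at 420.3, 399 and 426 RPKM in Col-0 and 455, 559.9 and 543 RPKM in csu6-2, and its paralog PSAH2 (AT1G52230) was at 1394, 1268 and 1409.9 RPKM in Col-0 and 1422, 1868 and 1953 RPKM in csu6-2. The gap between genotypes was narrow for PSAH2, with csu6-2 replicate 1 only just above Col-0 replicate 3. PSAH1 rose (log2 change 0.32, SE 0.09, adjusted p = 0.0284), while PSAH2 did not pass despite a similar size (log2 change 0.35, SE 0.11, adjusted p = 0.0586). Without csu6-2 replicate 1, PSAH2 passed (adjusted p = 0.00598), and the PSAH1/PSAH2 ratio overlapped between the genotypes. PSAP (AT2G46820), a thylakoid membrane protein first described with photosystem I and also known as the curvature protein CURT1B, was at 1170.0, 1119 and 1124 RPKM in Col-0 and 1415, 1664 and 1465 RPKM in csu6-2 and rose (log2 change 0.41, SE 0.08, adjusted p = 0.00624).

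Several of these calls depended on a library. Without csu6-2 replicate 2, PSAD1, PSAE1, PSAF, PSAG, PSAH1 and PSAK did not pass (adjusted p = 0.0700, 0.0533, 0.0537, 0.103, 0.129 and 0.0690). Leaving out Col-0 replicate 2 ended the calls of PSAD2, PSAH1 and PSAK (adjusted p = 0.0518, 0.106 and 0.0592), and leaving out Col-0 replicate 3 those of PSAD1 and PSAG (adjusted p = 0.0508 and 0.0837). Without csu6-2 replicate 3, PSAD2 and PSAH1 were lost (adjusted p = 0.0580 and 0.0831). The photosystem I genes called higher numbered 4 to 12 over the 6 fits, and their median log2 change 0.34 to 0.49.

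In photosystem II, 4 of the 6 genes called higher encode PSBO, PSBP and PSBQ, the extrinsic proteins of the oxygen-evolving complex that shield the manganese cluster on the lumenal side. PSBP1 (AT1G06680, chromosome 1, 2047634 to 2049439, plus strand) was at 2975, 2745 and 2711 RPKM in Col-0 and 3833, 4500.0 and 4087 RPKM in csu6-2. The genotypes were far apart, and PSBP1 rose 1.47-fold (log2 change 0.56, SE 0.09, adjusted p = 0.00142), the lowest adjusted p of the 40 genes. PSBO1 (AT5G66570) was at 2483, 2215 and 2399 RPKM in Col-0 and 2891, 3234 and 3167 RPKM in csu6-2 and PSBO2 (AT3G50820) at 1198, 1133 and 1287 RPKM in Col-0 and 1445, 1628 and 1571 RPKM in csu6-2. Neither overlapped between genotypes, and both rose (log2 changes 0.39 and 0.36, SE 0.08 and 0.08, adjusted p = 0.00937 and 0.0123). PSBQ2 (AT4G05180) was at 1671, 1558 and 1667 RPKM in Col-0 and 1749.8, 2263 and 2328 RPKM in csu6-2 and rose (log2 change 0.36, SE 0.10, adjusted p = 0.0387), with csu6-2 replicate 1 close to the Col-0 range. PSBQ1 (AT4G21280) was at 1988, 1786 and 2039 RPKM in Col-0 and 2059, 2214 and 2151 RPKM in csu6-2, separated by a narrow gap and not past the threshold (log2 change 0.15, adjusted p = 0.271). Summed over paralogs, PSBO went from 3572 ± 194 to 4645 ± 276 RPKM, PSBP from 2816 ± 143 to 4144 ± 337 RPKM and PSBQ from 3569 ± 197 to 4255 ± 386 RPKM (SD, n = 3 each).

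The PSBO1 and PSBO2 calls ended when Col-0 replicate 2 was left out (adjusted p = 0.0537 and 0.0644) and when csu6-2 replicate 2 was (adjusted p = 0.0523 and 0.0665). PSBQ2 passed in 1 of 6 such fits, that without csu6-2 replicate 1, and its adjusted p reached 0.160 without csu6-2 replicate 2. It was 0.0601, 0.138 and 0.0705 without Col-0 replicates 1, 2 and 3, 0.117 without csu6-2 replicate 3, and 0.0554 with median-of-ratios scaling. PSBP2 (AT2G30790), a low paralog of PSBP1, was at 5.15, 5.64 and 5.09 RPKM in Col-0 and 3.38, 4.68 and 4.57 RPKM in csu6-2 and did not pass (log2 change -0.28, adjusted p = 0.145). An antisense neighbour of PSBP2 reached 8.74 RPKM, above PSBP2 itself, and without a known strand setting their reads cannot be told apart.

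Of the low-mass and outer subunits of photosystem II, 2 rose. PSBW (AT2G30570), which stabilises the supercomplexes with the antenna, was at 2378, 2175 and 2290.2 RPKM in Col-0 and 2767, 3548 and 3239.6 RPKM in csu6-2 and rose 1.396-fold (log2 change 0.47, SE 0.10, adjusted p = 0.00678). PSBY (AT1G67740), a small membrane subunit, was at 989.9, 1093 and 975 RPKM in Col-0 and 1216, 1369 and 1407 RPKM in csu6-2, without overlap, and rose (log2 change 0.38, SE 0.08, adjusted p = 0.0103). The PSBY call was lost without csu6-2 replicate 2 (adjusted p = 0.0545). The remaining 6 did not pass. PSBR (AT1G79040), needed for stable binding of PSBP, was the most abundant of the 40 transcripts and ranked 3 among all genes, at 11800.1, 10392 and 12594 RPKM in Col-0 and 11425, 12638 and 13158 RPKM in csu6-2. Its groups overlapped (log2 change 0.10, adjusted p = 0.568). PSBS (AT1G44575), the sensor that triggers dissipation of excess light energy, was at 914 ± 36.4 RPKM in Col-0 against 959.9 ± 25.7 RPKM in csu6-2 (SD, n = 3 each; log2 change 0.07, adjusted p = 0.575). The small subunits PSBX (AT2G06520) and PSBTN (AT3G21055) were at 2615 ± 141 RPKM in Col-0 against 2906 ± 240.4 RPKM in csu6-2 and at 1571 ± 20.1 RPKM in Col-0 against 1724 ± 106 RPKM in csu6-2 (SD, n = 3 each). PSB27 (AT1G03600), which acts in assembly and repair of photosystem II, was at 427, 475 and 381 RPKM in Col-0 and 521, 533 and 473 RPKM in csu6-2, and PSB28 (AT4G28660), another assembly protein, was at 315, 336 and 365 RPKM in Col-0 and 323, 348 and 301 RPKM in csu6-2. PSBTN did not overlap between genotypes and the other 3 did. PSBX had a log2 change of 0.15, PSBTN of 0.13, and PSB27 and PSB28 of 0.26 and -0.06 (adjusted p = 0.286, 0.295, 0.0767 and 0.661). The threshold was passed by PSB27 when libraries were scaled by median-of-ratios factors (adjusted p = 0.0405) or when Col-0 replicate 2 was left out (adjusted p = 0.0474).

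Among the electron carriers, FD1 (AT1G10960, chromosome 1, 3664187 to 3665040, plus strand) was the gene that fell. It encodes the minor of 2 leaf-type ferredoxins, the iron-sulfur proteins that take electrons from photosystem I. FD1 was at 555, 530.2 and 513 RPKM in Col-0 and 470.5, 403 and 392 RPKM in csu6-2, so each csu6-2 library lay below each Col-0 library. Its mean fell from 533 ± 20.9 to 422 ± 42.4 RPKM (SD, n = 3 each; log2 change -0.34, SE 0.08, adjusted p = 0.0173). The FD1 call did not hold with Col-0 replicates 1 or 2, or csu6-2 replicates 2 or 3, left out (adjusted p = 0.0504, 0.0540, 0.0845 and 0.0610) and with median-of-ratios scaling (log2 change -0.26, adjusted p = 0.0630). FD2 (AT1G60950), the main leaf ferredoxin, was at 1899, 2052 and 1964 RPKM in Col-0 and 1938, 2056 and 1779 RPKM in csu6-2, and its groups overlapped (log2 change -0.04, adjusted p = 0.816).

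Plastocyanin, the copper protein that carries electrons to photosystem I, was represented by PETE2 (AT1G20340), at 5877, 6007 and 6432 RPKM in Col-0 and 6089.5, 6428 and 6779 RPKM in csu6-2, and by the far lower PETE1 (AT1G76100), at 228, 200.3 and 176 RPKM in Col-0 and 191, 226 and 204 RPKM in csu6-2. Both overlapped between genotypes and neither passed (log2 change 0.07, adjusted p = 0.623 for PETE2, and log2 change 0.04, adjusted p = 0.813 for PETE1). PETC (AT4G03280), the Rieske iron-sulfur protein of the cytochrome b6f complex, was at 1631, 1576 and 1755 RPKM in Col-0 and 1801, 1868 and 1777 RPKM in csu6-2. Its csu6-2 values lay narrowly above those of Col-0, with a log2 change of 0.14 (SE 0.08, adjusted p = 0.281). The ferredoxin-NADP reductase genes FNR1 (AT5G66190) and FNR2 (AT1G20020) were at 844 ± 38.7 RPKM in Col-0 against 867 ± 35.9 RPKM in csu6-2 and at 1089 ± 164 RPKM in Col-0 against 1006 ± 47.7 RPKM in csu6-2 (SD, n = 3 each). The spread of FNR2 in Col-0 covered its csu6-2 values, and neither gene passed (log2 changes 0.04 and -0.10, adjusted p = 0.794 and 0.558).

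No nuclear ATP synthase gene passed in the limma fit, and 0 of the 3 reached an unadjusted p under 0.05. ATPC1 (AT4G04640), for the gamma subunit through which thioredoxin regulates the enzyme, was at 609.6, 672 and 582 RPKM in Col-0 and 689, 699 and 619 RPKM in csu6-2. ATPD (AT4G09650), for the delta subunit, was at 871, 997 and 806 RPKM in Col-0 and 931, 1045 and 906 RPKM in csu6-2, and ATPG (AT4G32260), for the nuclear-encoded subunit of the peripheral stalk that the reference names PDE334, was at 814, 819.8 and 764 RPKM in Col-0 and 862, 842 and 727 RPKM in csu6-2. The groups overlapped in all 3, with log2 changes of 0.11, 0.11 and 0.02 (adjusted p = 0.438, 0.478 and 0.924). PGR5 and PGRL1 carry the antimycin-sensitive route of cyclic electron flow around photosystem I. PGR5 (AT2G05620) was at 239.6 ± 14.7 RPKM in Col-0 against 249.5 ± 11.3 RPKM in csu6-2, PGRL1A (AT4G22890) at 407 ± 22.1 RPKM in Col-0 against 426 ± 21.6 RPKM in csu6-2, and PGRL1B (AT4G11960) at 32.2 ± 2.06 RPKM in Col-0 against 30.4 ± 1.87 RPKM in csu6-2 (SD, n = 3 each). None of these 3 genes passed (log2 changes 0.06, 0.07 and -0.08, adjusted p = 0.654, 0.619 and 0.542, 0 of 3 at an unadjusted p under 0.05).

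**Figure D3:**
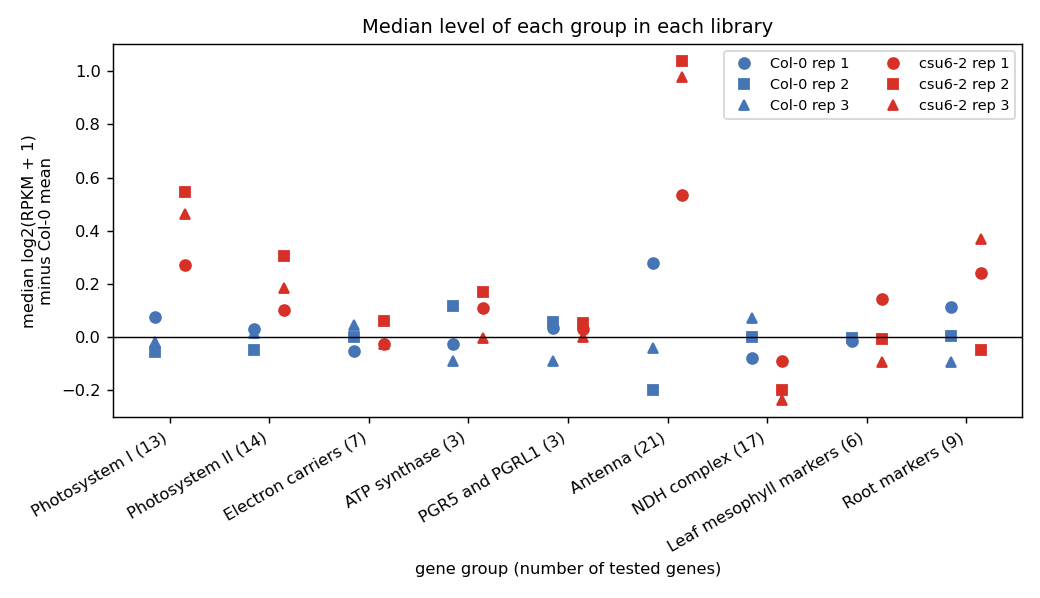
The median over each gene group of log2(RPKM + 1) minus the Col-0 mean, for each library (Col-0 in blue, csu6-2 in red, symbols by replicate number), with the number of tested genes in parentheses. The csu6-2 medians are 0.27, 0.54 and 0.46 for photosystem I and -0.02, 0.06 and -0.03 for the carriers in replicates 1, 2 and 3.

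The libraries also showed how unequal the subunits of a complex were as transcripts. In Col-0 the mean level of a photosystem I gene ranged from 415 RPKM for PSAH1 to 3919 RPKM for PSAN. In photosystem II it ranged from 5.29 RPKM for PSBP2 to 11595 RPKM for PSBR. PSBR, PETE2 and PSAN ranked 3, 6 and 8 among all genes in Col-0. At the other end, PGRL1B ranked 4058 and PSBP2 13671.

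Paralogs of a subunit were compared by their RPKM ratio within each library, a measure that scaling between libraries does not change. Over 10 pairs, an exact two-sided permutation test of 3 against 3 libraries can reach no lower p than 0.1, so no pair could pass 0.05, and after adjustment over the 10 pairs the lowest value was 0.333. PSAD1/PSAD2 was 2.69, 3.22 and 3.29 in Col-0 and 2.63, 2.43 and 2.28 in csu6-2. The share of PSAD1 in the summed level of the pair was 75.3 ± 2.11% in Col-0 against 70.9 ± 1.49% in csu6-2 (SD, n = 3 each), a log2 difference of -0.32 (SE 0.11) without overlap (exact permutation p = 0.1). FD1/FD2 was 0.292, 0.258 and 0.261 in Col-0 and 0.243, 0.196 and 0.221 in csu6-2, a log2 difference of -0.30 (SE 0.11), also without overlap (exact permutation p = 0.1). PSBP1/PSBP2 was 578, 487 and 533 in Col-0 and 1134, 962 and 894 in csu6-2, a log2 difference of 0.90 (SE 0.12), without overlap (exact permutation p = 0.1), although the low level of PSBP2 and its antisense neighbour make this ratio uncertain. The other 7 ratios overlapped between genotypes. PSBQ1/PSBQ2 was 1.19, 1.15 and 1.22 in Col-0 and 1.18, 0.978 and 0.924 in csu6-2 (exact permutation p = 0.2), near 1 in the csu6-2 libraries 2 and 3. PSBO1/PSBO2 stayed near 2 in every library, at 2.07, 1.96 and 1.86 in Col-0 and 2.00, 1.99 and 2.02 in csu6-2. Summed over paralogs, PSAD went from 2352 ± 215 to 3273 ± 322 RPKM, PSAE from 2665 ± 249 to 3501 ± 348 RPKM and PSAH from 1772 ± 91.6 to 2267 ± 339.6 RPKM (SD, n = 3 each), while FNR went from 1934 ± 201 to 1873 ± 45.6 RPKM and FD from 2505 ± 68.1 to 2346 ± 153 RPKM.

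**Figure D4:**
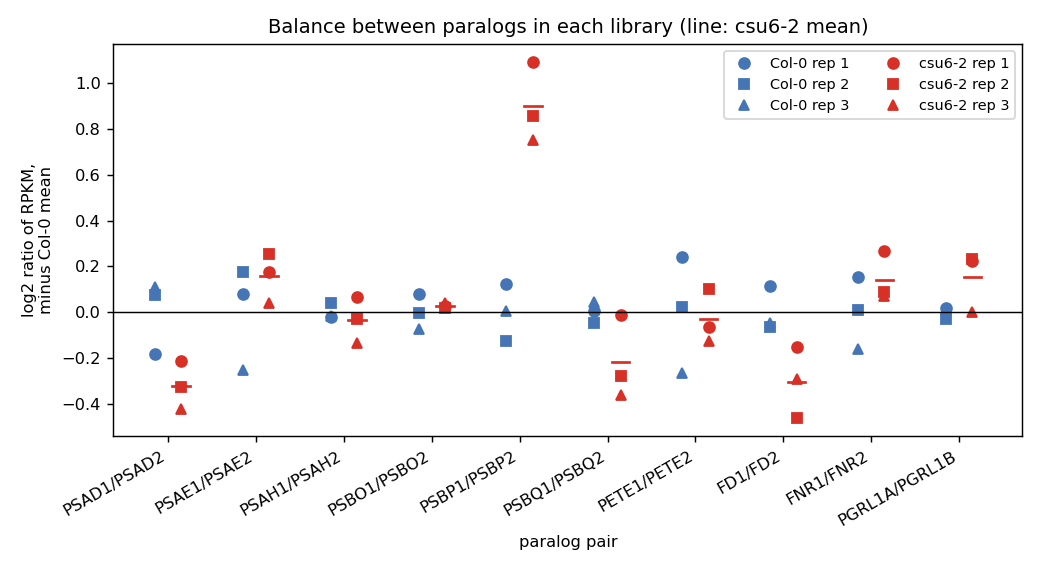
The log2 ratio of RPKM between the paralogs of 10 pairs in each library, minus the Col-0 mean of that ratio (Col-0 in blue, csu6-2 in red, symbols by replicate number, red line for the csu6-2 mean). Of the 10 pairs, PSAD1/PSAD2, PSBP1/PSBP2 and FD1/FD2 show no overlap, with csu6-2 means at -0.32, 0.90 and -0.30.

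Sequence shared within the pairs was measured, and its part in these ratios was not tested. The coding sequences of the pairs were 75.0 to 88.0% identical over their aligned bases, the highest being PSAD1 with PSAD2. The longest identical stretch between the transcripts of a pair was 17 to 38 bases (38 for PGRL1A with PGRL1B). In the annotation 12 of the 40 genes overlapped another gene, 10 of them a gene on the opposite strand. Apart from the neighbour of PSBP2, the overlapping genes listed in the files reached at most 10.2% of the lowest level of the member. That value belongs to the neighbour of FD1 on the same strand, and PSAE2 and PSAD2 followed with 10.1% and 8.36%.

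The promoters of all 40 genes were read for short motifs known from light and clock regulation, in the 250 bases before the annotated start on either strand. PIF proteins and HY5 are known to bind the G-box CACGTG, and PIF proteins also the PBE-box CATGTG. The CCA1-binding site core AAAATCT and the evening element core AATATCT are tied to the clock, and the I-box GATAAG and the GLK site core CCAATC to photosynthesis genes. Of the 17 genes called higher, 1 (PSBQ2) held a G-box, while 7 of 23 among the others did, against 6.49% of 27431 protein-coding genes. Those 7 were PSAE2, PSAH2, PSBP2, PSBQ1, PSBTN, PSB28 and ATPD, with log2 changes of 0.29, 0.35, -0.28, 0.15, 0.13, -0.06 and 0.11. The split follows the threshold, and PSAH2 lay near it (adjusted p = 0.0586). By complex, G-boxes were found in 5 of 14 promoters of photosystem II, 2 of 13 of photosystem I and 0 of 7 of the carriers. The CCA1-binding site core was found in 6 of 13 photosystem I promoters and 0 of 14 of photosystem II, against 16.45% of all. It was also found in 2 of 3 promoters of the ATP synthase, 2 of 3 of the PGR group and 1 of 7 of the carriers. Among the genes called higher 5 of 17 held it, and among the others 6 of 23, so its share was similar in both. The I-box was found in 11 of 40 of the set against 12.3%, the PBE-box in 6 of 40 against 11.1%, the GLK site core in 5 of 40 against 10.2%, and the evening element core in 6 of 40 against 2743 of 27431. The TATA box TATAAA was found in 19 of 40 against 47.3%, and the telo-box AACCCTA in 0 of 40 against 6.56%. These matches are a description of letters, and in 20 of the 40 genes the window reached into a neighbouring gene.

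The sequences below, from the TAIR10.1 assembly of RefSeq, are written 5′ to 3′ on the strand of the gene up to the base before its annotated start, shortened where a neighbouring gene begins, with motif matches on either strand in capitals. PSAL (chr4:7521007-7521256, plus strand) and PSAO (chr1:2641935-2642071, minus strand) are shown as the photosystem I genes of lowest adjusted p, each with a CCA1-binding site core, which in PSAO overlaps a TATA box. PSBQ1 (chr4:11334169-11334351, plus strand) and PSBQ2 (chr4:2673244-2673493, minus strand) are shown as paralogs that both hold a pair of G-boxes, PSBQ2 having risen and PSBQ1 not having passed. These 4 promoters were picked with the results in view. The reverse strand of the evening element core and of the GLK site core lies in PSBQ2, which also holds an I-box, and PSBQ1 holds a reverse TATA box.
PSAL: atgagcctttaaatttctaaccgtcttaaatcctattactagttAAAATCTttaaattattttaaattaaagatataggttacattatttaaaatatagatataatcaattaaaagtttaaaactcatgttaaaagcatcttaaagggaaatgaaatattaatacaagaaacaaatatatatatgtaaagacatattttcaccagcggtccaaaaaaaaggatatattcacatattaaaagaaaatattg
PSAO: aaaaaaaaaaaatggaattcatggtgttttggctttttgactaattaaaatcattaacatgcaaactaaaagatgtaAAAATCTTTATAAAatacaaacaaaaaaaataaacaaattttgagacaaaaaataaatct
PSBQ1: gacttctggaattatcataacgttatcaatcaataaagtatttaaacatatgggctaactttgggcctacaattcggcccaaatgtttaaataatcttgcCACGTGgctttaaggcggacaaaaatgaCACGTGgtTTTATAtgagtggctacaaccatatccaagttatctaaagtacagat
PSBQ2: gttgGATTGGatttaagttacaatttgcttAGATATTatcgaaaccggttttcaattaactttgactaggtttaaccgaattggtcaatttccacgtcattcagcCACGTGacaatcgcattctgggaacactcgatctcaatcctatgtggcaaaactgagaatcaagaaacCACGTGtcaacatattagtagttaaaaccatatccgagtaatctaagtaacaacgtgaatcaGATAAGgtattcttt

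**Figure D5:**
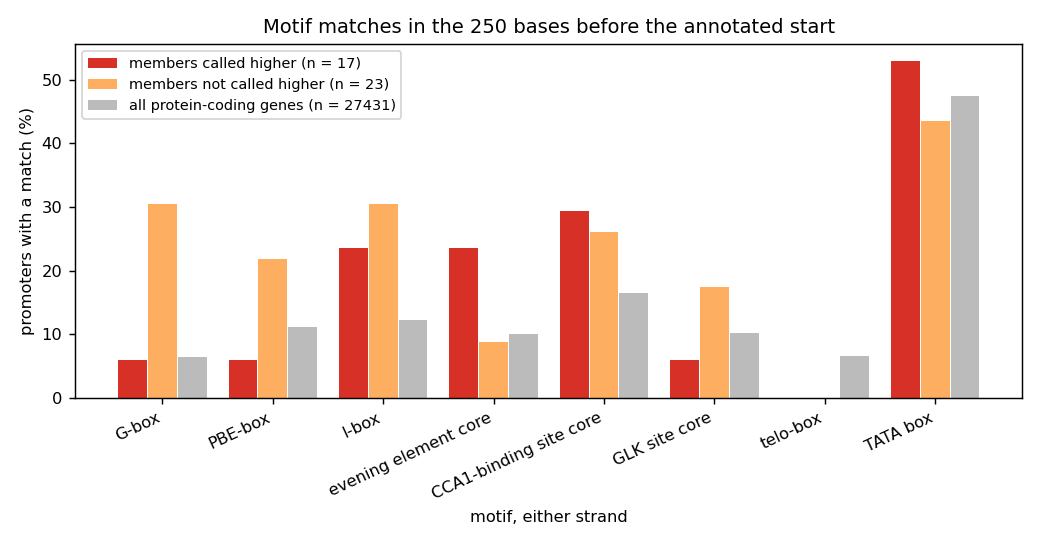
The share of promoters with at least 1 match to each motif, in percent, for the 17 genes called higher (red), the other 23 genes (orange) and all protein-coding genes (grey). The G-box bar of the genes called higher (5.88%) is near that of all genes (6.49%), and that of the other 23 genes is 30.4%.

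The antenna proteins bind the chlorophyll that feeds light energy to both photosystems. Of 21 antenna genes, 12 were higher and 1 (LHCB4.3) lower, or 57.1% and 4.76% against 3.55% and 9.38% of all tested genes, with a median log2 change of 0.88. The count of higher antenna genes was 17, 7 and 7 without Col-0 replicate 1, 2 or 3, and 14, 7 and 4 without csu6-2 replicate 1, 2 or 3. LHCB4.3 was not called lower with Col-0 replicate 2, Col-0 replicate 3 or csu6-2 replicate 2 left out. Those of lowest adjusted p were LHCA3 (log2 change 0.82, adjusted p = 0.00116), LHCB6 (log2 change 0.95, adjusted p = 0.00126) and LHCB4.1 (log2 change 0.60, adjusted p = 0.00249). The antenna sums were 47299, 32534 and 36759 in Col-0 and 54623, 72691 and 72443 in csu6-2, a mean ratio of 1.71, beside 1.36 for photosystem I and 1.18 for photosystem II, with no test of the difference. As in photosystem I, csu6-2 replicate 1 was the lowest csu6-2 library, and for 17 of 21 antenna genes.

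The chloroplast NDH complex, which feeds electrons back from ferredoxin to plastoquinone, was represented by 17 nuclear genes. Of these, 4 were lower, or 23.5% against 9.38% of all tested genes, and 0 were higher by limma, against 3.55% (7 in either direction at an unadjusted p under 0.05). NDHO was at 153, 174 and 185 RPKM in Col-0 and 133, 126 and 128 RPKM in csu6-2 and fell (log2 change -0.40, adjusted p = 0.00576). NDHN and NDHT also fell, by 0.28 and 0.26 on the log2 scale (adjusted p = 0.0240 and 0.0393). PNSL4 passed only just (log2 change -0.25, adjusted p = 0.0497). With median-of-ratios scaling 1 NDH gene was lower, against 5.89% of all tested genes, and 1 to 5 were lower with a library left out. Of 42 assembly and regulatory genes, 1 was higher and 4 lower, or 2.38% and 9.52%, near the shares of all tested genes. They included TIC62, a membrane tether of ferredoxin-NADP reductase, which rose (log2 change 0.39, adjusted p = 0.0104). DAC, required for the cytochrome b6f complex, and HCF101, needed for the iron-sulfur centres of photosystem I, fell (log2 change -0.33, adjusted p = 0.0125 and log2 change -0.29, adjusted p = 0.0159). With median-of-ratios scaling 4 of these genes were higher and 0 lower. A last list held 9 genes. They were PETM, a subunit of the cytochrome b6f complex, and minor or non-leaf forms such as the root ferredoxin and reductase genes. Of the 9, 8 were tested and 0 passed by limma (2 at an unadjusted p under 0.05), near the 3.55% and 9.38% of all tested genes. Their log2 changes were -0.34 to -0.01, beside a median of -0.07 over all tested genes. PETM was abundant, at a mean of 1986 RPKM in Col-0 and 1824 RPKM in csu6-2 (log2 change -0.13, adjusted p = 0.374).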

How the data were processed

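Each library had its own headerless table of 32678 loci. The authors deposited RPKM, rounded to 2 decimals and thus already divided by gene length and library total, a unit read from the values, since their sums weighted by exon length differed little between libraries (coefficient of variation 0.274%, against 0.975% for plain totals). The submitters' processing notes name HISAT2, edgeR 3.0.8 and TAIR10, without a role. The sources used here give no counting program, annotation or strand setting. Counts were not recovered, so no counting interval is given. Because RPKM is a share, higher values of abundant transcripts lower those of other genes.

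Genes with at least 1 RPKM in 3 or more libraries (18885) were tested as log2(RPKM + 1) with limma 3.58.1 in R 4.3.3 (trend and robust moderation, statmod 1.5.0), csu6-2 minus Col-0, two-sided, with Benjamini-Hochberg adjustment over all tested genes. This scale understates changes of low genes. The test was tried on simulated data drawn with its own fitted variances. The changes planted there were larger than most of those of the 40 genes, so it does not show how well changes of this size are found. Paralog ratios were compared by exact permutation. Alternatives were a pseudocount of 0.1, no filter or a minimum of 5 RPKM, median-of-ratios scaling, plain moderation, a replicate block and each library left out. Names, coordinates and promoters came from the RefSeq annotation of TAIR10.1 by locus, with 40 of 40 genes matched. The members and lists were chosen with earlier results of these data known. All 40 genes may be named, values per library being given for those past the threshold and their paralogs. Of other lists, the 3 genes of lowest adjusted p are named where at least 3 passed; PNSL4 was named after its value was seen.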

Additional observations from a re-analysis of the deposited data

How the results depend on the processing

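The photosystem I and II medians and sums kept their direction under every alternative run, and moved by less than the spread between libraries. Against 17 of the 40 genes called higher in the main test, 17 were called with a pseudocount of 0.1, 14 with no filter, 18 at a minimum of 5 RPKM, 16 with median-of-ratios scaling, 14 with plain moderation and 18 with the replicate block, and 6 to 18 with a library left out. The count of genes called lower (FD1) was 0 with median-of-ratios scaling and with plain moderation, and 0 to 1 with a library left out, also among the carriers alone. Left-out libraries gave 4 to 12 photosystem I and 2 to 6 photosystem II genes called higher. PSAD2 did not pass with the replicate block (adjusted p = 0.111), PSAN and PSBQ2 not with no filter (0.0771 and 0.0875) or plain moderation (0.0684 and 0.0824), nor PSAH1 under these settings (0.0640 and 0.0713). PSAH2 passed with the block (0.0385) and at the minimum of 5 RPKM (0.0494), and PSB27 with the block (0.0164).

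The replicate numbers are shared between genotypes, but the labels name nothing that they mark. Deviations of same-numbered libraries from their group means correlated at 0.20, 0.05 and 0.22, and those of differently numbered libraries at -0.30 to 0.12. Col-0 replicate 2 correlated best with csu6-2 replicate 1, at 0.12. Whether the numbers mark a shared batch was not tested, and the block result is given as a setting. With the block, 5 antenna genes were higher and 0 lower, and 4 assembly and regulatory genes were higher and 6 lower. Of all tested genes, 4.3% were higher and 11.4% lower in that fit.

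Median-of-ratios scaling moved all genes called to 1066 higher and 1113 lower, the carrier median to 0.11, the PGR median to 0.14, the ATP synthase median to 0.18, and the summed ratios of carriers and PGR genes to 1.08 and 1.097. It left 1 NDH gene lower, and 4 assembly genes higher and 0 lower. With no filter 2 NDH and 2 assembly genes were lower, and with plain moderation 1 and 2. Leaving out a library gave 389 to 674 genes higher and 859 to 1790 lower over the whole table, 4 to 17 antenna genes higher and 0 to 1 lower, 1 to 5 NDH genes lower, 0 to 2 assembly genes higher and 0 to 4 lower, and carrier medians of -0.0211 to 0.0448. Signs turned only among genes not past the threshold. With median-of-ratios scaling PSB28 went to 0.0128 and FD2 to 0.0396. With a library left out, the log2 change ranged over -0.0495 to 0.139 for PETE1, -0.0860 to 0.0182 for FD2, -7.20e-04 to 0.0698 for FNR1, -0.219 to 0.00121 for FNR2 and -0.0303 to 0.0923 for ATPG, and the log2 ratio difference over -0.0830 to 0.0189 for PSAH1/PSAH2, -0.00844 to 0.0680 for PSBO1/PSBO2 and -0.163 to 0.0913 for PETE1/PETE2. The cause of these changes was not tested.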
